A study of Mus musculus with 12 samples.

Results

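Interferon-stimulated genes are the genes a cell switches on when an interferon binds its receptor, and 40 of them were listed here, from antiviral effectors to the chemokines that call in T cells. A probe that the name table tied to a transcript of the gene was found for 38 of the 40, among 26405 genes tested in mouse liver, and all 38 were tested. Mx1 and Mx2 had no such probe and were not analysed here. Where several probes matched, the brightest by its 12-array mean stood for the gene. By the interferon that chiefly induces them, 25 members formed a type I class and 13 a gamma class.

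Type I interferons signal through the kinases JAK1 and TYK2 to transcription factors, STAT2 and IRF9 among them, that act at the interferon-stimulated response element (ISRE) in promoters. Interferon gamma, made by T and NK cells, signals through JAK1 and JAK2 to the gamma-activated site (GAS). In liver, hepatocytes and Kupffer cells (the resident macrophages) both respond, and many genes answer to either signal, so the classes are a matter of degree.

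RNA from the livers of male mice was measured on 12 one-colour Agilent expression arrays, and each of the 4 groups held 3 arrays. KO IIAEK mice lacked Akp3, which encodes an intestinal alkaline phosphatase, and received the pentapeptide IIAEK by mouth at 600 mg/kg of body weight per day. KO vehicle mice lacked Akp3 and received 5 g/L carboxymethylcellulose sodium salt, WT IIAEK mice were wild type and received the peptide, and WT vehicle mice were wild type and received the carboxymethylcellulose. Dosing was once daily for 14 days (1 label field of the peptide groups says weeks, where titles and design say days), from an age of 7 weeks per the series design, and livers were taken after a fast of 8 h. The labels name no strain, and they do not say what else separates the arrays of a group, so p-values measure the spread between these arrays. The question the design poses for these genes is whether the peptide, the loss of Akp3 or both together shift the liver's interferon programme.

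Levels are on a log2 scale with the array's own 75th percentile subtracted, so 0 is the brightness of the probe at that percentile, and 1 unit is a factor of 2. A level is comparable between arrays for 1 gene, not between genes. In whole liver, a change in the number of cells of a type and a change of RNA per cell cannot be told apart.

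The arrays had 75th percentiles of 314.6 to 529.4 intensity units, and 56.8% to 61.9% of probes were well above background. Akp3 itself was above background on 0 of 12 arrays, so the knockout could not be checked in liver. Markers of hepatocytes were above background on all arrays (8 of 8). Replicate 1 of each group lay on slide 1 and replicates 2 and 3 on slide 2, each slide with its own scan. Replicates 2 and 3 of WT vehicle and replicates 1 and 3 of KO vehicle stood apart from the other 8 arrays on the first principal component, which held 55.4% of the variance. WT vehicle 2 and, less so, WT vehicle 1 carried small-intestine transcripts (median of 8 markers 3.20 and 1.26 above their 12-array means on the log2 scale), and WT vehicle 1 carried pancreas transcripts (median of 6 markers 2.61 above). Several results of the members that rest on these arrays are given with and without them. The pathway lists are given without the arrays that stood apart, but not without WT vehicle 1 and 2.

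The response elements that define the pathway were looked for in the members' promoters, because they are what the type I and gamma signals act on. In the 250 bases before the start (RefSeq, GRCm38.p6), the ISRE letters, GAAA repeated after any 2 bases and read on either strand, were present in 14 of the 29 members with a promoter in the table (48.3%) and in 936 of 27025 genes (3.46%). The GAS letters TTCNNNGAA (the same on both strands, and allowed to overlap the ISRE) were present in 8 of 29 members (27.6%) and in 2197 genes (8.13%). The gamma class held the ISRE in 6 of 11 promoters and the GAS in 4 of 11, and the type I class held them in 8 of 18 and 4 of 18. Of Bst2, Psmb9, Oasl1, Oasl2, Irf7 and Cxcl9, whose arrays are described one by one below, Bst2 alone held a motif in this window. Its promoter lies at chr8:71537473-71537722 on the minus strand, and the capitals mark a GAS that runs into a doubled ISRE.
Bst2 promoter: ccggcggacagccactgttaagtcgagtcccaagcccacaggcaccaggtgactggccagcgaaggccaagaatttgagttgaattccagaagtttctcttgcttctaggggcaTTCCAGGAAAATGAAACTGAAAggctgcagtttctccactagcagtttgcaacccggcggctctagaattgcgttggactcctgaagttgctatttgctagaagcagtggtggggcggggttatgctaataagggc

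The next sequences show the ISRE nearest the start in each of the 6 gamma-class members that have one, then in the 3 type I members whose site lies nearest the start. Capitals mark ISRE and GAS letters, and the sites were picked after the motif search. Igtp (chr11:58199507-58199536, plus strand) and Irgm2 (chr11:58214898-58214927, plus strand) share the same layout, a GAS followed after 2 bases by an ISRE. In Gbp2 (chr3:142620589-142620618, plus strand) and Gbp3 (chr3:142559990-142560019, plus strand) the ISRE reads on the other strand. The other sites lie at chr11:48871430-48871459 (Irgm1), chr5:92349088-92349117 (Cxcl10), chr5:120907526-120907554 (Oas1a), chr4:156200870-156200899 (Isg15) and chr5:120777720-120777749 (Oas3), all on the minus strand.
Igtp: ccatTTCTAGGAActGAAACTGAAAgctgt
Irgm2: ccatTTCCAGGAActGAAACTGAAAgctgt
Irgm1: ctgtttcaaGAAATAGAAACCGAAActgat
Gbp2: taggaactcttttagTTTCACTTTCactgt
Gbp3: aggacacagTTTCAGTTTCTATTTCccaga
Cxcl10: acagctcacgctttgGAAAGTGAAActtac
Oas1a: ccttctcggGAAATGGAAACTGAAAatct
Isg15: tagGAAAAGGAAACCGAAACAGAAAatagc
Oas3: actcagcagggaggaGAAAACGAAAgtgaa

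The interferon-stimulated genes were present in these livers. Of the 38 tested, 37 were above background on all 12 arrays. Oas3 was the exception, above background on 2 of 3 KO IIAEK, 3 of 3 KO vehicle, 2 of 3 WT IIAEK and 1 of 3 WT vehicle arrays. It was tested only because of the KO vehicle group, where it was highest, so results of its family and class are also given for the members above background on every array. The members also varied more between arrays of a group than genes in general. The pooled SD within groups had a median of 0.446 log2 units over the members and of 0.291 over all genes tested. Parp9, an ADP-ribosyltransferase that works with the E3 ligase DTX3L, varied least (SD 0.147), and Oas3 most (SD 1.01).

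Much of that variation ran through many members at once and followed single arrays. WT IIAEK 3 was the highest of the 12 arrays for 18 of 38 members, including Ifit1, Isg15, Stat2, Igtp and Cxcl9, whereas it was the highest for 5.92% of all genes tested. KO IIAEK 2 was the highest for 8 members (3.08% of all genes), among them Irf7, Tap1 and Psmb9. WT vehicle 2 was the lowest for 14 members (19.3% of all genes) and WT IIAEK 1 for 10 (7.64%). The median deviation of the members from their 12-array means was -0.15, 0.46 and 0.08 on KO IIAEK arrays, -0.08, 0.07 and 0.08 on KO vehicle arrays, -0.35, -0.12 and 0.44 on WT IIAEK arrays, and -0.25, -0.42 and 0.30 on WT vehicle arrays. In each of KO IIAEK, WT IIAEK and WT vehicle, 1 array of 3 was therefore above the others of its group. The KO vehicle arrays lay close together.

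**Figure D1:**
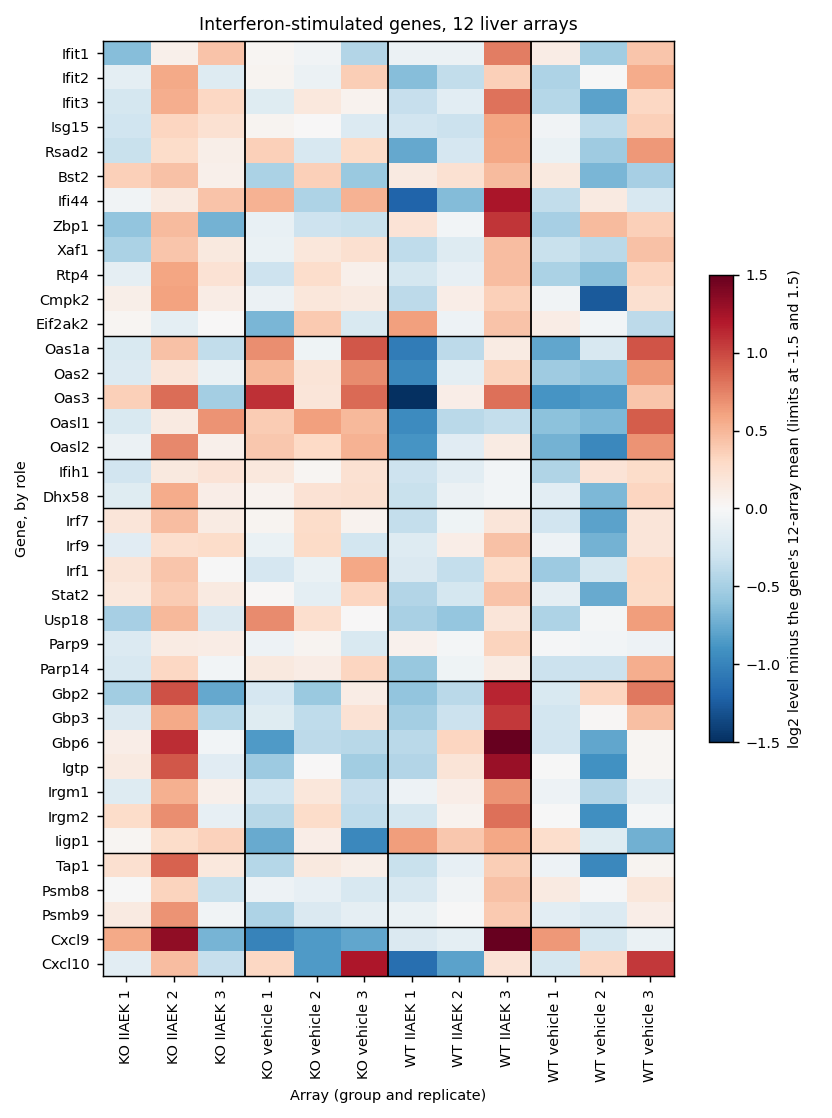
Each row is an interferon-stimulated gene and each column an array, and the colour is the log2 level minus that gene's mean over the 12 arrays. Horizontal lines separate, from the top, effectors, the OAS family, sensors, regulators, GTPases, antigen-processing genes and chemokines. The columns of KO IIAEK 2 and WT IIAEK 3 are red for 37 and 35 of the 38 genes.

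The T and NK cell markers were also high on KO IIAEK 2 and WT IIAEK 3, though not on those 2 arrays alone. Of 11 markers, 9 were above background on every array and were tested, and their median deviation was highest in WT IIAEK 3 (0.41) and KO IIAEK 2 (0.37). The other 4 peptide-treated arrays lay between -0.69 and -0.14. The vehicle arrays lay between -0.70 and 0.22 in KO and between 0.01 and 0.31 in WT, and the 0.31 was that of WT vehicle 2, the array with the lowest median of the members. Cd8a and Ncr1 were above background on 5 and 1 of 12 arrays. The log2 of the summed level of the 9 markers, which Cd4 dominates, ran from 5.30 to 5.75 in KO IIAEK, 4.78 to 5.64 in KO vehicle, 5.46 to 6.03 in WT IIAEK and 4.91 to 6.34 in WT vehicle. By that sum WT IIAEK 3, at 5.46, was the lowest of its group. Ifng, the gene of interferon gamma, was above background on 8 of 12 arrays, with levels of -4.43, -3.42 and -5.20 in KO IIAEK, -5.84, -4.31 and -4.73 in KO vehicle, -5.51, -5.23 and -3.48 in WT IIAEK and -4.19, -5.23 and -4.48 in WT vehicle. Its 2 highest values were those of KO IIAEK 2 and WT IIAEK 3. The part of these cells in the members' levels was not tested.

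The first comparison set IIAEK against vehicle. Of the gamma-induced GTPases, 7 of 7 in KO and 6 of 7 in WT had a higher mean with IIAEK, as had 3 of 3 and 2 of 3 antigen-processing genes and 7 of 12 and 9 of 12 type I effectors. No member passed the threshold in either genotype or averaged over both (limma, Benjamini-Hochberg adjusted p over all 26405 genes, threshold 0.05), and few genes of any kind did. In KO livers 0 of 38 members passed (0% of all genes) and 3 had an unadjusted p under 0.05, all higher (background 6.29%, of which 3.62% higher). In WT livers 0 passed (0.00379% of all genes) and 2 had an unadjusted p under 0.05, both higher (background 12.6%, of which 6.02% higher). Averaged over genotypes 0 passed (0%) and 4 had an unadjusted p under 0.05, all higher with IIAEK (background 22.8%, of which 11.8% higher). Read against these backgrounds, the counts do not set the members apart from other genes. The median log2 change was 0.12 in KO, 0.09 in WT and 0.12 averaged, against 0.04, 0.05 and 0.05 over all genes.

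Iigp1, an immunity-related GTPase that coats the vacuoles of intracellular parasites, had the smallest p of the members with IIAEK. Its levels were 6.37, 6.63 and 6.69 in KO IIAEK livers, against 5.59, 6.45 and 5.38 in KO vehicle livers. They were 6.98, 6.76 and 6.93 in WT IIAEK livers, against 6.62, 6.16 and 5.62 in WT vehicle livers. In WT every IIAEK liver was above every vehicle liver, and in KO replicate 2 of vehicle lay above replicate 1 of IIAEK. The log2 change was 0.76 in KO, 0.75 in WT and 0.76 averaged (SE 0.209, 95% interval 0.29 to 1.22, unadjusted p = 0.00423, limma adjusted p = 0.181). It was 0.57 on slide 1 and 0.85 on slide 2. In WT it was 0.50 without WT vehicle 3. Loss of Akp3 went with a change of -0.33 averaged over treatments (95% interval -0.79 to 0.13, adjusted p = 0.439).

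Bst2 (tetherin), which holds budding virus at the cell surface, ran alongside Iigp1. It stood at 6.81, 6.89 and 6.53 in KO IIAEK and 5.98, 6.80 and 5.90 in KO vehicle livers. It stood at 6.59, 6.68 and 6.93 in WT IIAEK and 6.60, 5.77 and 5.96 in WT vehicle livers. The vehicle groups each held 1 array at the level of the peptide groups and 2 arrays below it, so the groups overlapped. The change was 0.57 averaged over genotypes (SE 0.193, 95% interval 0.14 to 0.997, unadjusted p = 0.0135, adjusted p = 0.181).

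The low vehicle values of both genes came from the 4 arrays that stand apart. For Iigp1 and Bst2 the 4 lowest of the 12 arrays were exactly WT vehicle 2 and 3 and KO vehicle 1 and 3. This held for 2 of 38 members (5.26%) and for 12.8% of all genes tested. Leaving out these 4 arrays keeps 1 vehicle array in each genotype, KO vehicle 2 and WT vehicle 1. WT vehicle 1 carries pancreas and small-intestine transcripts, so the wild-type vehicle level in this setting rests on that array alone. The averaged IIAEK change was then 0.19 for Iigp1 and 0.04 for Bst2. Without WT vehicle 1 and 2, the arrays with transcripts of other organs, Iigp1 reached 1.01 (adjusted p = 0.0493) and passed, and Bst2 stood at 0.65 (adjusted p = 0.0708). Without WT vehicle 1 alone both passed, Iigp1 at 0.88 (adjusted p = 0.0164) and Bst2 at 0.69 (adjusted p = 0.0221), as did 24.9% of all genes. Without KO vehicle 2 alone both passed as well, at 0.92 (adjusted p = 0.0318) and 0.72 (adjusted p = 0.0378), with 9.86% of all genes. With all 12 arrays kept but weighted by how well each fitted, both passed too, Iigp1 at 0.90 (adjusted p = 0.00699) and Bst2 at 0.77 (adjusted p = 0.0075), with 28.7% of all genes.

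The other GTPases of the gamma class were also mostly higher with IIAEK. Of 7 in all, 7 had a higher mean in KO IIAEK than in KO vehicle and 6 in WT IIAEK than in WT vehicle. Gbp6 had the widest averaged difference of the 7, with means of 0.25 ± 0.625 in KO IIAEK, -0.69 ± 0.257 in KO vehicle, 0.38 ± 1.03 in WT IIAEK and -0.48 ± 0.412 in WT vehicle (SD, n = 3 each). Averaged over genotypes its change was 0.90 (95% interval 0.16 to 1.64, unadjusted p = 0.021, adjusted p = 0.185). In WT its change was 0.86, and 0.30 without WT IIAEK 3. In KO it was 0.94, and 0.58 without KO IIAEK 2. Gbp6 did not overlap between the KO groups, nor Irgm1 between the WT groups. Igtp (averaged change 0.65), Irgm2 (0.49) and Irgm1 (0.37), whose ISRE sites are printed above, had 95% intervals that reached -0.04, -0.06 and -0.02. They were at 0.32, 0.11 and 0.14 without the 4 arrays that stand apart. Gbp2 and Gbp3 were at -0.06 (95% interval -0.89 to 0.76) and 0.05 (-0.59 to 0.69). The median over the 7 GTPases was 0.49 averaged over genotypes. On slide 1 that median was 0.12 and on slide 2 it was 0.63. In WT alone it was -0.23 on slide 1, where the antigen-processing genes had -0.26.

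Psmb9, a catalytic subunit of the immunoproteasome, which cuts proteins into peptides for MHC class I, had levels of 2.92, 3.46 and 2.74 in KO IIAEK against 2.32, 2.57 and 2.66 in KO vehicle livers. In wild type it had 2.69, 2.78 and 3.18 with IIAEK against 2.63, 2.58 and 2.89 with vehicle. Every KO IIAEK liver was above every KO vehicle liver, while the WT groups overlapped. The change was 0.52 in KO (SE 0.213, 95% interval 0.05 to 0.99, unadjusted p = 0.0328, adjusted p = 0.664) and 0.18 in WT (95% interval -0.29 to 0.65, adjusted p = 0.701). The difference between both changes was 0.34 (95% interval -0.33 to 1.004, adjusted p = 1). Without KO IIAEK 2 the change in KO was 0.31 and the difference 0.13. Without the 4 arrays that stand apart they were 0.46 and 0.21. Tap1, a chain of the transporter that carries these peptides into the endoplasmic reticulum, likewise did not overlap in KO (change 0.49) and averaged 0.40 over genotypes (95% interval -0.09 to 0.89), or 0.24 without WT vehicle 2. Psmb8, another immunoproteasome subunit, averaged 0.05 (-0.27 to 0.38).

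The chemokines Cxcl9 and Cxcl10 draw in T cells through the same receptor, CXCR3. Cxcl9 stood at 2.01, 2.77 and 0.75 in KO IIAEK against 0.44, 0.59 and 0.66 in KO vehicle livers. It stood at 1.22, 1.29 and 2.94 in WT IIAEK against 2.09, 1.17 and 1.35 in WT vehicle livers. The 3 KO vehicle livers were the lowest of all 12, below every KO IIAEK and every WT vehicle liver. The change with IIAEK was 1.28 in KO (SE 0.539, 95% interval 0.09 to 2.46, unadjusted p = 0.0379, adjusted p = 0.664) and 0.28 in WT (-0.91 to 1.47), and their difference was 0.99 (-0.69 to 2.68, adjusted p = 1). Without KO IIAEK 2 the change in KO was 0.81 and the difference 0.53. Without WT IIAEK 3 the change in WT was -0.28 and the difference 1.56, and without KO IIAEK 3 the difference was 1.54. Loss of Akp3 went with -0.97 under vehicle (95% interval -2.16 to 0.22, adjusted p = 0.737) and with 0.02 under IIAEK (-1.16 to 1.21). Without the 4 arrays that stand apart the change under vehicle was -1.498. The change in KO and the genotype change under vehicle share the KO vehicle arrays. Cxcl10 had an averaged change with IIAEK of -0.60 (95% interval -1.42 to 0.23), with means of 1.55 ± 0.422 in KO IIAEK, 1.79 ± 1.03 in KO vehicle, 0.99 ± 0.699 in WT IIAEK and 1.94 ± 0.663 in WT vehicle (SD, n = 3 each). Its averaged change was 0.26 without the 4 arrays that stand apart.

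Counting all members whose groups did not overlap gave 4 higher with IIAEK in KO (Cxcl9, Gbp6, Psmb9 and Tap1) and 1 lower (Oas2), where 8.77% and 6.26% of all genes did the same. In WT 2 were higher (Iigp1 and Irgm1) and 0 lower, with 7.26% and 5.7% of all genes. Averaged over genotypes no member separated the 6 IIAEK from the 6 vehicle livers, and 0.398% of genes did so upwards and 0.269% downwards.

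**Figure D2:**
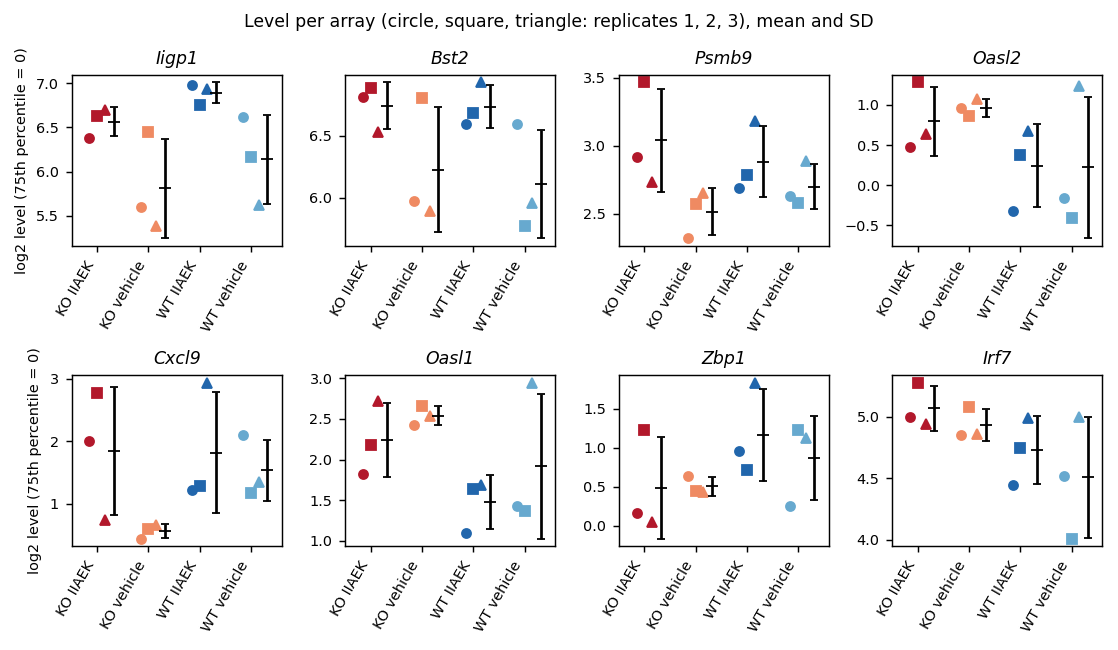
Log2 level per array of the 8 genes that hold 1 of the 2 smallest unadjusted p-values of a comparison, in KO IIAEK, KO vehicle, WT IIAEK and WT vehicle livers, with the group mean and SD (n = 3). Iigp1 and Bst2 each have 2 low vehicle arrays in each genotype, and Cxcl9 is tightly low in KO vehicle.

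The type I members were split with IIAEK. Of 25, 11 had a higher mean with IIAEK in KO, 15 in WT and 13 averaged over genotypes. The median averaged change was 0.01 (0.04 over the 24 without Oas3). The count in WT rested on WT vehicle 1 and 2, the arrays with transcripts of other organs. Against WT vehicle 3 alone, most type I members had a lower mean in WT IIAEK. Isg15, the ubiquitin-like modifier that gives the pathway one of its usual markers, had means of 3.24 ± 0.33 in KO IIAEK, 3.11 ± 0.136 in KO vehicle, 3.16 ± 0.519 in WT IIAEK and 3.13 ± 0.369 in WT vehicle (SD, n = 3 each). Its averaged change was 0.08 (95% interval -0.36 to 0.52). Ifit1 (0.15), Ifit2 (-0.14) and Ifit3 (0.30), which bind foreign RNA or block its translation, and Rsad2 (viperin, -0.14), which makes a chain-terminating nucleotide, had intervals of similar width around 0. Rtp4, Cmpk2 (the mitochondrial nucleotide kinase beside Rsad2) and Eif2ak2 (the kinase PKR) had averaged changes of 0.25 to 0.29, and Ifi44 and Xaf1 of -0.04 and -0.01. The RNA sensors Ifih1 (MDA5) and Dhx58 (LGP2) had -0.15 and 0.01. The 95% intervals had a median half-width of 0.509 log2 units over the type I class. The regulators Irf7 (0.18), Irf9 (0.23), Stat2 (0.14), Usp18 (-0.37) and Parp14 (-0.16) were as mixed, and the 2 probes of Parp9 disagreed in sign (0.13 and -0.10). Irf1, the regulator of the gamma class, had 0.10.

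The gamma class had a median averaged change of 0.37, with 11 of 13 members higher with IIAEK, as were 56.1% of all genes. In KO the median was 0.46 for the gamma class (12 of 13 higher) and -0.02 for the type I class. In WT it was 0.28 (10 of 13 higher) and 0.03. Gamma minus type I was thus 0.48 in KO, 0.25 in WT and 0.37 averaged. The class medians are a description, since no test of a list was run. The counts in WT include WT vehicle 1 and 2, and against WT vehicle 3 alone fewer members of both classes were higher with IIAEK. On slide 1 the gamma and type I medians were 0.59 and -0.38 in KO, and -0.26 and -0.17 in WT, where the order was the other way. On slide 2 they were 0.39 and 0.14 in KO, and 0.59 and 0.16 in WT. In WT the class difference rested on single arrays: without WT vehicle 3 it was 0.00314, and without WT vehicle 1 it was 0.44. In KO it ran from 0.32 (without KO vehicle 1) to 0.61 (without KO IIAEK 3). Without the 4 arrays that stand apart it was 0.32 in KO, 0.08 in WT and 0.23 averaged. With the members that both interferons strongly induce left out of both classes, the averaged difference was 0.76. That left 6 gamma members, all higher with IIAEK, and 18 type I members. Cxcl10, the gamma member with the lowest averaged change (-0.60), was among those left out. In WT on slide 1 both stricter classes had a median of -0.19. The classes were chosen with earlier results of these data known.

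**Figure D3:**
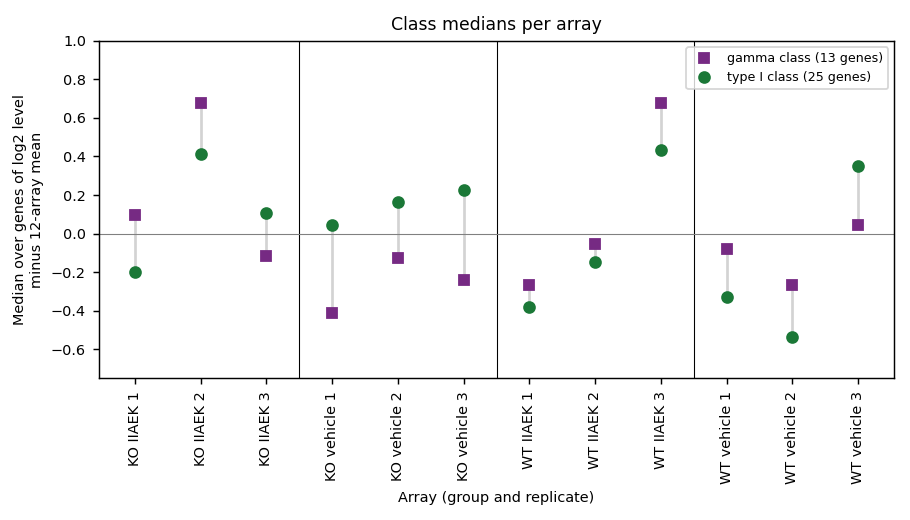
For each array, the median over the 13 gamma-class and the 25 type I-class genes of the log2 level minus the gene's 12-array mean. The gamma class lies below the type I class in all 3 KO vehicle arrays, and also in WT vehicle 3 and KO IIAEK 3. Both classes peak in KO IIAEK 2 and WT IIAEK 3.

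The second comparison set Akp3 knockout against wild type. Averaged over treatments, 21 of 25 type I members, the OAS family among them, and 4 of 13 gamma members had a higher mean in the knockout. Of all genes 44.5% had. No member passed the threshold. Under vehicle 0 of 38 passed (0.00379% of all genes) and 0 had an unadjusted p under 0.05 (background 6.62%). Under IIAEK 0 passed (0.00757%) and 0 had an unadjusted p under 0.05 (background 7.83%). Averaged over treatments 0 passed (0.0227%) and 3 had an unadjusted p under 0.05, all higher in the knockout (background 16%, of which 6.88% higher). The members' median change was 0.14 under vehicle, 0.15 under IIAEK and 0.15 averaged, against -0.05, -0.02 and -0.04 over all genes.

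The OAS enzymes make the 2'-5'-linked oligoadenylates that switch on RNase L when double-stranded RNA is present, and Oasl1 and Oasl2 are OAS-like members of the family. The 4 family members above background on every array had higher means in KO than in WT under vehicle, under IIAEK and averaged. Their median averaged change was 0.55. Under vehicle this rested on WT vehicle 1 and 2, the arrays with transcripts of other organs. The KO vehicle means of Oas1a, Oas2, Oasl1 and Oasl2 were 3.04, 2.04, 2.54 and 0.96. WT vehicle 3 alone was above all 4, at 3.47, 2.22, 2.95 and 1.23. Oasl1, which restrains translation of Irf7 in mice, had levels of 1.82, 2.18 and 2.72 in KO IIAEK against 1.10, 1.64 and 1.69 in WT IIAEK livers. It had 2.42, 2.66 and 2.53 in KO vehicle against 1.43, 1.37 and 2.95 in WT vehicle livers. Under IIAEK every KO liver was above every WT liver, and under vehicle WT vehicle 3 was the highest of all 12. The averaged change was 0.69 (SE 0.275, 95% interval 0.09 to 1.30, unadjusted p = 0.029, adjusted p = 0.281). It was 0.86 on slide 1 and 0.61 on slide 2. Its second probe gave 0.80.

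Oasl2 overlapped between the genotypes under both treatments. It had 0.47, 1.28 and 0.63 in KO IIAEK against -0.32, 0.38 and 0.68 in WT IIAEK livers. It had 0.96, 0.86 and 1.08 in KO vehicle against -0.16, -0.41 and 1.23 in WT vehicle livers. WT vehicle 3 was again above all KO vehicle livers, and the other 2 WT vehicle livers were below them. The change was 0.74 under vehicle (SE 0.407, 95% interval -0.16 to 1.64, adjusted p = 0.737), with 0.43 without WT vehicle 2 and 1.25 without WT vehicle 3, and 0.65 averaged (0.01 to 1.28, unadjusted p = 0.0466, adjusted p = 0.306). Oas2 (averaged change 0.42), Oas1a (0.46) and Oas3 (0.93) had intervals that included 0, and the second Oas2 probe, which did not pass the filter on dim probes, gave -0.31. With IIAEK averaged over genotypes the 4 above background on every array had changes of -0.50 to -0.07, with a median of -0.34 and intervals that included 0. Oasl2, the nearest of them to 0, was at 0.18 without WT vehicle 3.

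Irf7, the transcription factor that amplifies type I interferon production, had levels of 4.99, 5.28 and 4.94 in KO IIAEK against 4.45, 4.75 and 4.99 in WT IIAEK livers. It had 4.85, 5.08 and 4.86 in KO vehicle against 4.52, 4.01 and 5.00 in WT vehicle livers. Its averaged change was 0.38 (SE 0.17, 95% interval 0.01 to 0.76, unadjusted p = 0.0463, adjusted p = 0.306), and its second probe gave 0.47. The WT vehicle livers overlapped the KO vehicle livers through replicate 3 alone. The other regulators of the type I class were Stat2 (averaged change 0.29) and Irf9 (0.09), which sit in the complex that binds the ISRE, Usp18 (0.25), which shuts off the type I receptor, and Parp14 (0.20) and Parp9 (-0.08), with intervals that included 0. Irf1, the gamma-class regulator, had 0.28 (95% interval -0.16 to 0.71).

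Under vehicle and averaged over treatments, these genotype differences depended on which WT vehicle arrays were kept. WT vehicle 1 and 2 are the arrays that carry transcripts of other organs. Without both, WT vehicle is replicate 3 alone, and the averaged change was 0.18 for Oasl1 and 0.14 for Irf7. Under vehicle, Oasl2 turned to -0.26, and the members' median to -0.30. With only WT vehicle 2 left out, the members' median under vehicle was -0.04, and with only WT vehicle 3 left out it was 0.32. Under IIAEK, where the WT vehicle arrays take no part, the median was -0.12 without WT IIAEK 1, -0.05 without KO IIAEK 2 and 0.42 without WT IIAEK 3. The change of Oasl1 under IIAEK was 0.77, and between 0.53 and 0.98 when single arrays were left out. Without the 4 arrays that stand apart, Oasl1 was at 0.997 (adjusted p = 0.188) and Irf7 at 0.45 (adjusted p = 0.299).

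Zbp1, a sensor of Z-form nucleic acids that can trigger cell death, was 1 of 4 type I members with a lower averaged mean in KO. It had 0.17, 1.23 and 0.05 in KO IIAEK against 0.96, 0.71 and 1.83 in WT IIAEK livers. It had 0.64, 0.44 and 0.43 in KO vehicle against 0.26, 1.23 and 1.12 in WT vehicle livers. The groups overlapped in both treatments. The change was -0.68 under IIAEK (SE 0.381, 95% interval -1.52 to 0.16, adjusted p = 0.633) and -0.52 averaged (-1.12 to 0.07, adjusted p = 0.35). Under IIAEK it was -0.35 without WT IIAEK 3 and -1.06 without KO IIAEK 2, and averaged it was -0.25 without the 4 arrays that stand apart. A second Zbp1 probe gave 0.15 averaged, so the probes of this gene disagreed in sign. The same was true of Rsad2, whose probes gave 0.14 and -0.25.

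By class, 21 of 25 type I members had a higher averaged mean in KO, with a median of 0.20, and 4 of 13 gamma members did, with a median of -0.06. Without Oas3 it was 20 of 24 type I members, with a median of 0.20. These counts include WT vehicle 1 and 2. Without both, which leaves WT vehicle 3 alone, the median over all members was -0.07 averaged and -0.30 under vehicle. The split was 20 of 25 and 4 of 13 under vehicle, and 21 of 25 and 6 of 13 under IIAEK. The type I count under vehicle rested on WT vehicle 1 and 2. Against WT vehicle 3 alone, most type I members had a lower mean in KO vehicle. On slide 1 the averaged medians were 0.31 for type I and 0.01 for gamma, and on slide 2 they were 0.13 and -0.08. Gamma minus type I was -0.26 averaged, between -0.34 and -0.20 when single arrays were left out, and -0.10 without WT vehicle 1 and 2. Groups that did not overlap were found for 0 members upwards and 2 downwards under vehicle (Cxcl9 and Psmb8), where 3.15% and 5.29% of all genes did so. Under IIAEK they were found for 1 upwards (Oasl1) and 1 downwards (Iigp1), against 13% and 14.6% of all genes. Averaged over treatments no member separated the 6 KO from the 6 WT livers (0.67% of all genes upwards, 0.954% downwards).

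**Figure D4:**
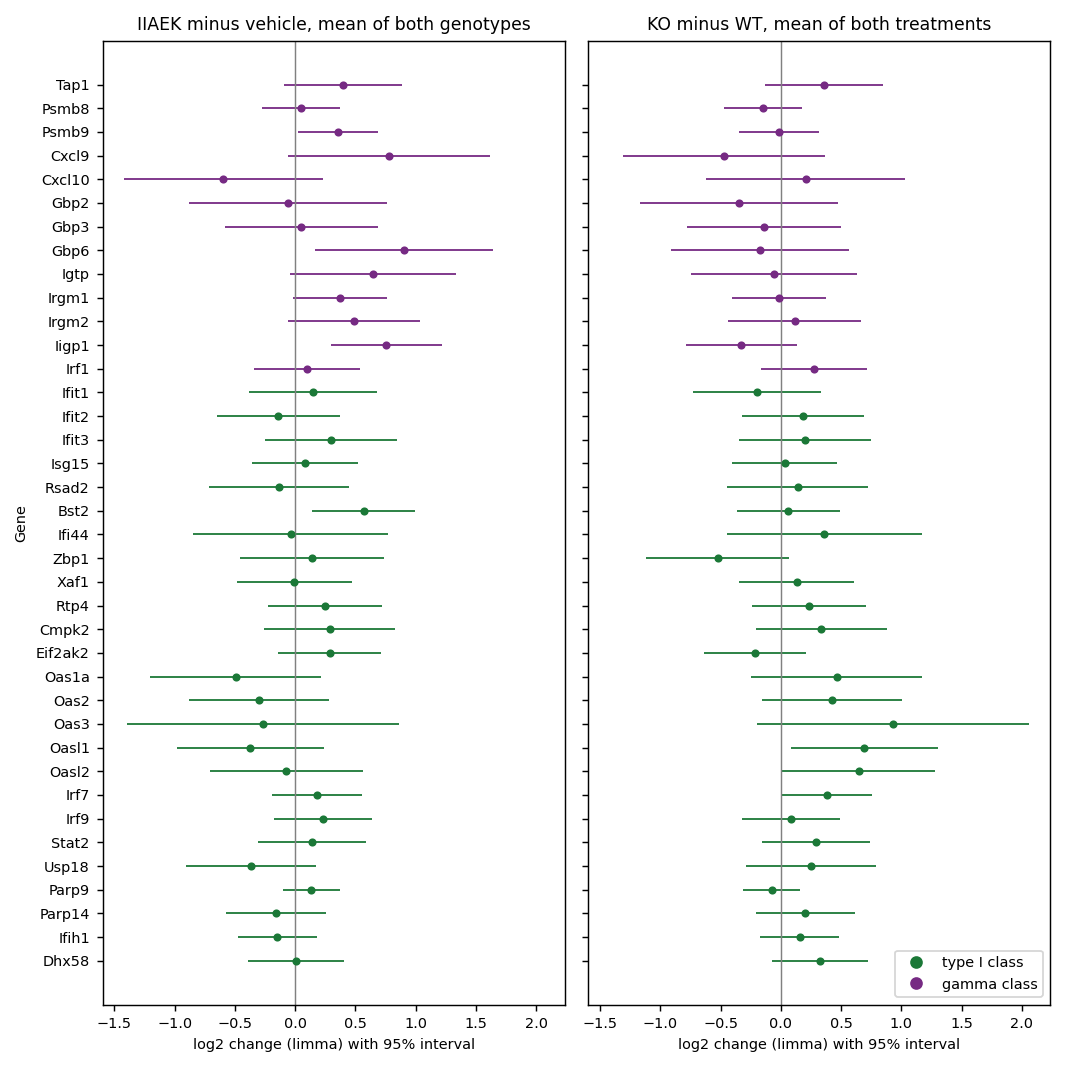
Fitted log2 change (points) with its 95% interval (bars) for each of the 38 genes, for IIAEK minus vehicle averaged over genotypes (left) and KO minus WT averaged over treatments (right). On the left 4 intervals lie above 0 (Iigp1, Bst2, Gbp6 and Psmb9), and on the right 3 do (Oasl1, Oasl2 and Irf7), and no member passed after adjustment over all genes.

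The third comparison asked whether the response to IIAEK differed with genotype. No member's interaction passed (0 of 38, background 0%), and 0 had an unadjusted p under 0.05, where 1.56% of all genes did. The members' median interaction was -0.04 and that of all genes 0.01. Cxcl9 (0.99) and Psmb9 (0.34), given above, had the smallest p among the members, with adjusted p = 1 for both. The 95% intervals were wide, with a median half-width of 1.04 log2 units over the members.

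The rest of the interferon pathway was read from lists of its ligands, receptors, signalling proteins and further targets. No gene of any list passed the threshold in any of the 7 comparisons. Where the 4 arrays that stand apart are left out below, WT vehicle is WT vehicle 1 alone, an array with transcripts of other organs. Of 18 ligand genes 16 had a named probe, 9 were tested and 5 were above background on 0 of 12 arrays, Ifnb1 and Ifna4 among them. The smallest p among the ligands were in WT, IIAEK against vehicle, for Ifnk (change 0.73, adjusted p = 0.393) and Ifnab (0.68, adjusted p = 0.393), where 7 of the 9 were lower (median -0.10). Of the 6 receptor genes 4 had lower means with IIAEK averaged over genotypes, with a median of -0.37, and without the 4 arrays that stand apart 3 had, with a median of 0.01. The receptors' median deviation was 0.29 and 0.47 on KO vehicle 1 and 3, 0.38 and 0.47 on WT vehicle 2 and 3, and between -0.30 and -0.06 on the other 8 arrays. Il10rb, a chain of the interferon lambda and IL-10 receptors, had a change of -0.91 (SE 0.289, unadjusted p = 0.00967, adjusted p = 0.181). Ifnlr1, the other chain of the lambda receptor, had -2.10 (SE 0.796, adjusted p = 0.187) and was above background on 10 arrays. Their changes were -0.04 and 0.40 (adjusted p = 0.997 and 0.963) without the 4 arrays.

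Downstream of the receptors the smallest p were those of Irf8 and Irf5, factors of myeloid cells, with changes of -0.96 and -0.61 with IIAEK averaged over genotypes (adjusted p = 0.185 and 0.192). Of 12 sensors and adaptors, 3 were higher, and Ikbke and Sting1 had -0.65 and -0.69 (adjusted p = 0.185 and 0.191). The 8 Kupffer cell markers had a median averaged change with IIAEK of -0.40 (7 of 8 lower, 1 with an unadjusted p under 0.05). Their median deviation was 0.40 and 0.52 on KO vehicle 1 and 3 and 0.44 and 0.47 on WT vehicle 2 and 3, but -0.21 on KO vehicle 2 and -0.19 on WT vehicle 1. Without the 4 arrays that stand apart the changes were 0.03 for Irf8, 0.00439 for Irf5, 0.06 for Ikbke and -0.04 for Sting1, 7 of 12 sensors and adaptors were higher, and the Kupffer cell median was -0.00230. The part of these cells in the values was not tested.

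Further type I targets gave little. Of 29 tested, 13 were higher with IIAEK and 16 in KO, with averaged medians of -0.02 and 0.06. The counts were 17 and 21, with medians of 0.04 and 0.16, without the 4 arrays. Lgals3bp, a secreted glycoprotein, had 0.68 in KO averaged over treatments (SE 0.2, unadjusted p = 0.00622, adjusted p = 0.236), with means of 5.13 in KO IIAEK, 5.20 in KO vehicle, 4.49 in WT IIAEK and 4.48 in WT vehicle. Parp12 had 0.33 (adjusted p = 0.265). Among negative regulators, 6 of 8 were higher in KO, and Trex1 and Adar, which remove or edit self nucleic acids, had 0.35 and 0.45 (adjusted p = 0.297 and 0.3). Trex1 was at 0.20 without the 4 arrays.

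Further gamma targets were split with IIAEK, 6 of 12 higher, with a median of 0.09. Gbp4, a relative of Gbp6, had 0.75 (SE 0.259, adjusted p = 0.184), and the adhesion molecule Icam1 had -0.94 (adjusted p = 0.187). Leaving out the 4 arrays gave 11 of 12 higher, with a median of 0.28, Gbp4 at 0.38 and Icam1 at 0.01. In the MHC class I list 8 of 11 genes were higher with IIAEK, with a median of 0.12 and B2m, the light chain, at 0.29 (adjusted p = 0.208). With the 4 arrays left out 6 of 11 were higher, and B2m was at 0.02. Tapbp (tapasin) had 0.41 in KO averaged over treatments (adjusted p = 0.28). The 10 subunits of the constitutive proteasome, set beside the immunoproteasome members, had a median of 0.12 with IIAEK (10 of 10 higher) and of -0.28 in KO (10 of 10 lower). These were -0.09 (1 of 10 higher) and -0.22 (9 of 10 lower) without the 4 arrays. Psma7 and Psmb1 had the smallest p there, both at -0.35 (adjusted p = 0.264 and 0.275).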

How the data were processed

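Per the file headers, the software for all 12 one-colour arrays was Agilent Feature Extraction 10.7.3.1. The deposited processed signal is an intensity per spot with the background subtracted and no scaling between arrays. The deposited series table holds log2 values. Compared with scanner values scaled to the 75th percentile and centred on each probe, they gave Pearson r of at least 0.99998. The header's build is mm9, and probes were named only through RefSeq transcripts of another build (GRCm38.p6): 32994 of 56605 probes had a symbol.

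Control and non-uniform spots were left out and the spots of a probe averaged. Values are log2 intensity minus the array's 75th percentile. A gene entered the tests if, in 1 group or more, its probe exceeded background on every array. All 12 arrays were fitted in limma 3.58.1 (R 4.3.3) with 1 mean per group (8 residual degrees of freedom), two-sided, with Benjamini-Hochberg adjustment over the 26405 genes. The fit was tested on simulated data with independent noise for each gene, which held no slide effect and no arrays that stand apart. The precision of array values is limited by their number, and no spot was saturated.

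The members, classes and lists were chosen with earlier results of these data known. Values in every array are given for the 2 members with the smallest unadjusted p in each comparison, and the same rule, over all comparisons, picked 2 genes of each pathway list. Alternatives were other backgrounds, normalizations, filters, probe rules, slide or replicate blocks, array weights and arrays left out. Same-numbered arrays did not pair: the correlations of their deviations ran from -0.546 to 0.645. Counts over the list of kinases and transcription factors of the pathway are not reported here.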

Additional observations from a re-analysis of the deposited data

How the results depend on the processing

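Of the values answering a comparison, 551 recomputed ones kept their direction and side of the threshold or moved less than the spread between arrays. For 14 this did not hold. The spread was 0.32 log2 units for the members' median and 0.23 for the class difference. It exceeds the members' medians, so a change of sign, as from 0.09 to -0.13 for IIAEK in WT, can count as kept. The count is therefore no measure of robustness. Of the single genes, 362 kept direction and side of the threshold, 9 newly passed and 1 reversed. The cause of these moves was not tested. With array weights 1 member passed for IIAEK in KO and 2 for IIAEK averaged over genotypes, where 3.06% and 28.7% of all genes passed. Without WT vehicle 1 and 2, 2 passed for IIAEK averaged, Oasl1 at -0.89 (adjusted p = 0.0493) and Iigp1, with 8.34% of all genes. The same setting gave a members' median of -0.28 for IIAEK in WT, -0.30 for KO against WT under vehicle and 0.45 for the interaction, a gamma minus type I difference of -0.11 under vehicle, and -0.26 for Oasl2. With the stricter classes (6 gamma and 18 type I members) that difference was 0.73 for IIAEK in KO, 0.60 in WT and 0.76 averaged. With a replicate block 0 members passed. Each replicate number occurs once in every group, so the class differences could not move in that setting (0.37 for IIAEK averaged). The scanner software's own 75th percentile was added as an alternative after seeing the data and changed no call.

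Leaving out each array in turn, 0 to 1 members passed for IIAEK in WT, 0 to 2 averaged over genotypes and 0 in the other comparisons. The members' median ran from 0.02 to 0.18 for IIAEK in KO, -0.13 to 0.30 in WT and -0.01 to 0.20 averaged, from -0.04 to 0.32 for KO under vehicle, -0.12 to 0.42 under IIAEK and 0.06 to 0.28 averaged, and from -0.22 to 0.19 for the interaction. Gamma minus type I ran from 0.32 to 0.61, 0.00314 to 0.44 and 0.27 to 0.43, from -0.49 to -0.31, -0.32 to -0.02 and -0.34 to -0.20, and from 0.09 to 0.36. Oas3 is near background and its changes are the least certain.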
